A study of Mus musculus with 12 samples.

Results

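The thalamic marker genes described here are 10 named genes whose transcripts mark neurons of the mouse thalamus or its subdivisions. They are Prkcd, Tcf7l2, Gbx2, Lef1, Slc17a6, Ntng1, Rora, Zic1, Synpo2 and Ramp3, taken by gene name from the 25749 genes of each of 12 expression tables. All 10 were found in every table, and all 10 passed the filter on low counts with 14771 genes in all. The 10 genes were chosen by name with their measured differences between injured or treated and uninjured mice already known. Their levels and folds against uninjured mice are therefore given as a description, without p-values, and no support is drawn from them.

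RNA of whole tissue was measured in the brains of 12 B6 mice, all male and 13 weeks old, in 3 groups of 4. One group was uninjured, one carried a cerebrovascular injury, and one carried the injury and received αLFA1/VLA4 continuously, antibodies against a pair of integrins that leukocytes use to adhere to and cross vessel walls. Mice were perfused with saline and a cube of tissue with edges of 3 mm was frozen on day 20 after injury. The labels name no brain region, and what uninjured mice received in place of the injury or the antibodies is not stated in the labels used here.

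The thalamus is a set of nuclei beneath the cortex that relays sensory and motor signals to it. Most of its relay neurons are glutamatergic and load their vesicles with the transporter VGLUT2, whereas cortical pyramidal neurons mainly use VGLUT1. Transcription factors including Gbx2, Tcf7l2 and Lef1 take part in forming thalamic neurons, and several of these factors stay expressed in the adult. None of the 10 genes is confined to the thalamus. Prkcd is also expressed in other brain nuclei and in blood cells, Lef1 in brain endothelium, Tcf7l2 in cells that are becoming oligodendrocytes, Zic1 in meninges, Rora across cortex and cerebellum, and Synpo2 in muscle.

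The start-site windows of Prkcd, Tcf7l2 and Gbx2 are shown because these genes differed most from uninjured tissue in both injured groups, and because Tcf7l2 and Lef1 encode factors that bind the core motif CTTTGA. Each window covers 250 bases before to 50 bases after a RefSeq transcript start, in the build GRCm38.p6. The windows are Prkcd at chr14:30626159-30626458 on the minus strand, Tcf7l2 at chr19:55741560-55741859 on the plus strand and Gbx2 at chr1:89931127-89931426 on the minus strand, each written 5′ to 3′ along its gene. Capitals mark CTTTGA on the opposite strand.
Prkcd: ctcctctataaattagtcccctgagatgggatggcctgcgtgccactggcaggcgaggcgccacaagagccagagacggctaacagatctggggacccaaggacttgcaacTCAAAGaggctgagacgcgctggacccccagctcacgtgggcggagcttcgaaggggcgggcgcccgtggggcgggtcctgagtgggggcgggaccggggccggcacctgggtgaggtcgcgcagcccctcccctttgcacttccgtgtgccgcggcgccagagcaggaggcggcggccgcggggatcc
Tcf7l2: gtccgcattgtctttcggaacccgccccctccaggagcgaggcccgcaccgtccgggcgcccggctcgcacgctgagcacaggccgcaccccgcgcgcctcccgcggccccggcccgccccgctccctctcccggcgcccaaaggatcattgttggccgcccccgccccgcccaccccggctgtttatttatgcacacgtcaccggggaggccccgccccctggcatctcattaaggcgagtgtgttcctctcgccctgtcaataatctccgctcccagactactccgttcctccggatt
Gbx2: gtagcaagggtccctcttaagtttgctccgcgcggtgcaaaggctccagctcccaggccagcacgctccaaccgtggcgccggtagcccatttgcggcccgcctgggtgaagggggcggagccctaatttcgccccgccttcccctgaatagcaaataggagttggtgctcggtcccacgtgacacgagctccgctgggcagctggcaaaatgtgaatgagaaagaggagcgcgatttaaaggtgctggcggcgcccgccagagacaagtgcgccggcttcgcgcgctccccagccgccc

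The Prkcd window held the motif once, with its first base 139 bases before the start, and the windows of Tcf7l2 and Gbx2 held none. Across the first window of each of the 10 genes, 1 of 10 held CTTTGA on either strand, against 16% of all 32851 windows of this length. All 16 windows of the 10 genes added 1 more, an internal start of Lef1 with 2 matches. The core AGGTCA, bound by ROR factors such as the product of Rora, was in 0 of the 16 windows and in 16.3% of all windows. The homeobox core TAATTA, which Gbx2-type factors bind, was in the first window of 1 of the 10 genes, Synpo2, and in 5.29% of all windows. The matches found did not overlap one another, and they describe letters only.

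Exon reads per library ran from 15159988 to 15781229 in uninjured mice, from 15507462 to 16121577 in injured mice and from 13330379 to 13917157 in treated mice. Reads of mitochondrial genes took 10.3% to 12% of exon reads in uninjured, 4.75% to 7.99% in injured and 8.83% to 11.0% in treated libraries. Uninjured replicate 1 and treated replicate 4 were the ends of the first principal component (38.3% of the variance). Values whose sign or call changed without these libraries are also given without them. Levels are normalised CPM, read counts per 1000000 reads scaled to the effective library size, as mean ± SD over 4 mice. Fold changes are log2 values with their standard error (SE) from 1 edgeR model of all 12 libraries.

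In injured tissue, 7 of the 10 thalamic marker genes were higher than in uninjured tissue at an adjusted p below 0.05 and 0 were lower, while 11.9% of all genes tested were called higher and 11.0% lower. In injured tissue under the antibodies 7 of 10 were also higher and 0 lower, against 6.30% and 3.22% of all genes. The same shares of all genes are the background for every count of a gene list given below. The members share the uninjured libraries between both comparisons, and their choice used both. The median log2 difference of the 10 genes was 0.41 in injured and 0.56 in treated tissue, beside 0.03 and 0.01 over all genes tested. In bulk tissue, fewer cells of a type and less RNA per cell cannot be told apart, and the same holds for more of either. Every injured library lay above every uninjured library for 7 of the 10 genes, a pattern that 17.4% of all genes showed, and every treated library for 8 of the 10, against 9.01% of all genes. On intron reads 7 of the 10 could be tested, and 1, Prkcd, was called higher in injured and 0 in treated tissue, against 0.142% and 0.470% of the genes tested there, with 0 lower in both (0.346% and 0.204% of genes).

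**Figure D1:**
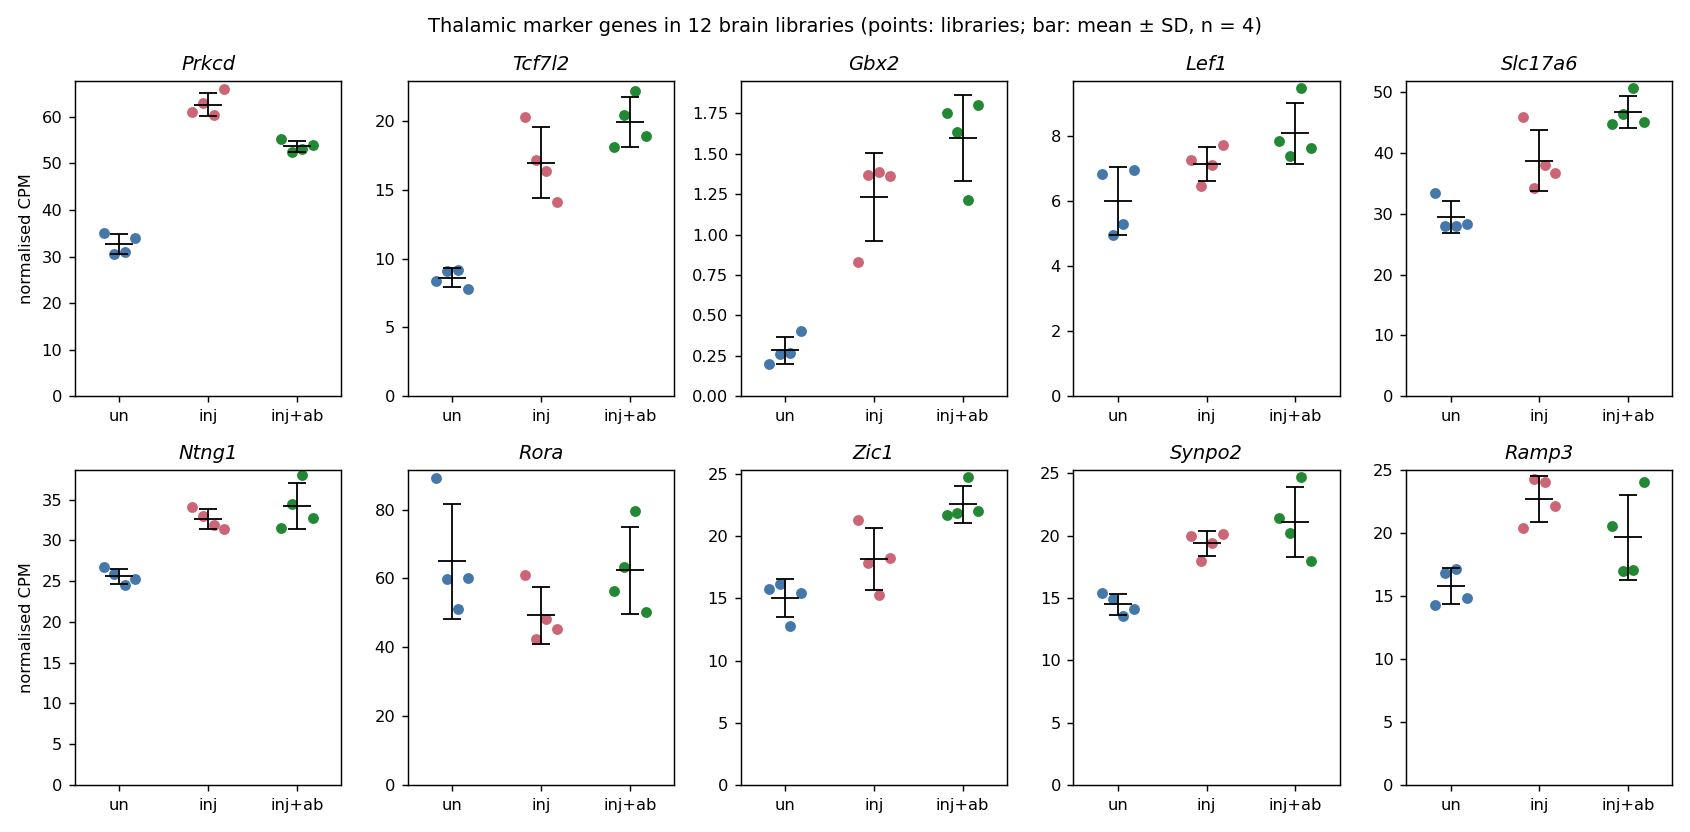
Normalised CPM (vertical axis, from 0, one scale per gene) of the 10 thalamic marker genes in uninjured (un), injured (inj) and injured mice given αLFA1/VLA4 (inj+ab). Points are libraries and bars are mean ± SD of 4, and Prkcd, Tcf7l2 and Gbx2 show uninjured points well below all others while the groups of Rora overlap.

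Among the transcription factors, Gbx2 differed most in relative terms but was the least abundant. Gbx2 encodes a homeobox factor needed for thalamic neuron differentiation, and the gene lies at chromosome 1, 89927956 to 89931179, with 2 exons. Its level was 0.202, 0.261, 0.268 and 0.403 CPM in the uninjured libraries, from 3 to 6 reads each. In the injured libraries it was 0.828, 1.37, 1.39 and 1.36 CPM, from 13 to 23 reads, and in the treated libraries 1.75, 1.64, 1.21 and 1.8 CPM, from 17 to 24 reads. Every library of injured mice, treated or not, lay above every uninjured library, and the injured and treated ranges overlapped. The log2 difference from uninjured was 2.10 (SE 0.29, 95% interval 1.48 to 2.71) in injured and 2.46 (SE 0.28, 1.86 to 3.07) in treated tissue. In rank of log2 difference, Gbx2 stood 16th from the top of 14771 genes in injured against uninjured tissue.

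Tcf7l2, an effector of Wnt signalling that thalamic neurons express into adulthood, lies at chromosome 19, 55741820 to 55933654. It measured 8.34, 9.13, 9.19 and 7.78 CPM in uninjured libraries. The injured libraries held 20.3, 17.1, 16.3 and 14.1 CPM and the treated libraries 18.1, 20.4, 22.2 and 18.9 CPM. The lowest injured library was above the highest uninjured one by a wide margin, and the treated libraries overlapped the injured ones. The log2 difference was 0.98 (SE 0.11) in injured and 1.21 (SE 0.11) in treated tissue. Because premyelinating oligodendrocytes also express Tcf7l2, the lists of that lineage stand beside it. Of 6 precursor genes 0 were higher and 1 was lower in each comparison with uninjured tissue (Enpp6 in injured, Gpr17 in treated), and their summed level ran from 340 to 355 CPM in uninjured, 328 to 341 in injured and 319 to 333 in treated libraries. Pdgfra and Cspg4 of that list stood at -0.36 and 0.20 in injured against uninjured tissue and did not pass. Of 6 genes of mature oligodendrocytes 0 were higher, 2 were lower in injured and 1 in treated tissue, with sums of 6910 to 7390, 6420 to 6860 and 6390 to 7350 CPM, and Mbp stood at 0.04 in injured tissue. None of these 12 genes was at 0.

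Lef1, the second Wnt effector, lies at chromosome 3, 131110471 to 131224356, and differed less. It measured 6.02 ± 1.04 CPM in uninjured, 7.15 ± 0.527 in injured and 8.10 ± 0.939 in treated tissue (n = 4 each). The uninjured libraries ranged from 4.95 to 6.98 and the injured ones from 6.47 to 7.75, so these overlapped, while the treated range of 7.40 to 9.48 lay above all uninjured libraries. Lef1 passed the threshold in neither comparison with uninjured tissue, at log2 differences of 0.25 (SE 0.13) and 0.43 (SE 0.13), and the second passed in some alternatives: without uninjured replicate 4 (0.51), with library size alone (0.48), in DESeq2 (0.41) and with the trend of GC content and length removed (0.41). Of 8 brain endothelial genes, which mark another source of Lef1, 1 was higher and 2 lower in injured and 1 higher and 1 lower in treated tissue, with Cldn5 at 0.56 (passing) and Pecam1 at 0.07 (not passing) in injured tissue. Their summed level was 430 to 434, 395 to 413 and 421 to 452 CPM in uninjured, injured and treated libraries, no gene was at 0, and their part in the Lef1 level was not tested.

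Rora encodes an orphan nuclear receptor of thalamic and sensory circuits and lies at chromosome 9, 68653786 to 69388246. It was the exception among the 10 genes. Its level was 89.2, 59.8, 51.0 and 60.1 CPM in uninjured, 61.0, 42.5, 48.3 and 45.3 CPM in injured and 56.4, 63.3, 79.5 and 50.4 CPM in treated libraries. The groups overlapped, and replicate 1 of the uninjured and replicate 3 of the treated mice were highest. The log2 difference from uninjured was -0.40 (SE 0.18) in injured and -0.06 (SE 0.18) in treated tissue. Without injured replicate 1 the injured value was -0.54, past the threshold. Without uninjured replicate 1 the treated value was 0.13, and without treated replicate 4 it was 0.03. When the trend of counts with GC content and length was removed within each library, the differences became 0.02 (SE 0.06) and 0.15 (SE 0.06), and the spread of Rora between mice of a group fell from 0.29 to 0.09 on the log2 scale. Rora has the lowest GC content of the 10 genes, 40.9% in its longest transcript.

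Intron reads of Rora ran the other way from its exon reads in the libraries at the ends of the first component. Uninjured replicate 1 held 1327 exon and 267 intron reads of Rora, the most exon reads and the fewest intron reads of the 12 libraries. Treated replicate 4 held 671 exon and 617 intron reads, the fewest exon and the most intron reads. On intron reads the log2 difference from uninjured was 0.19 (SE 0.23) in injured and 0.81 (SE 0.23) in treated tissue, opposite in sign to the exon values.

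Zic1, a zinc finger factor of the dorsal and midline brain, lies at chromosome 9, 91358058 to 91365810, and its exons overlap those of Zic4 on the opposite strand. Whether counting used the strand is not given in the sources used here, so reads of the pair cannot be separated with certainty. Zic1 measured 15.7, 16.2, 12.8 and 15.4 CPM in uninjured and 21.3, 17.9, 15.2 and 18.2 CPM in injured libraries, and these ranges overlapped. The treated libraries held 21.7, 21.8, 24.7 and 22.0 CPM, all above every library of both other groups. The log2 difference from uninjured was 0.27 (SE 0.11) in injured, which did not pass, and 0.59 (SE 0.11) in treated tissue. The injured value passed with library size alone (0.35) and with the trend of GC content and length removed (0.43, SE 0.09). Meningeal fibroblasts also express Zic1. Of 8 of their marker genes 3 were higher in injured and 6 in treated tissue, with summed levels of 140 to 147, 151 to 168 and 218 to 232 CPM in uninjured, injured and treated libraries. Foxc1 and Dcn stood at 0.29 and 1.39 in treated against uninjured tissue, and only Dcn of these passed. No gene of that list was at 0 and 0 were lower, and its part in the Zic1 level was not tested.

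Prkcd encodes protein kinase C delta, a kinase activated by diacylglycerol that is abundant in many thalamic relay neurons, and lies at chromosome 14, 30595354 to 30626210. Its levels were 35.0, 30.6, 31.0 and 34.0 CPM in uninjured, 61.1, 63.1, 60.4 and 65.9 CPM in injured and 55.2, 52.4, 53.0 and 53.9 CPM in treated libraries. The 3 groups did not overlap at all, with injured highest, treated between and uninjured lowest. The log2 difference from uninjured was 0.94 (SE 0.06) in injured and 0.72 (SE 0.06) in treated tissue. Intron reads of Prkcd, 179 over the 4 uninjured, 342 over the injured and 244 over the treated libraries, gave log2 differences of 0.78 (SE 0.15) and 0.66 (SE 0.16). Myeloid cells express Prkcd too. Of 10 microglia and macrophage genes 4 were higher and 1 was lower in injured and 4 were higher and 0 lower in treated tissue, with summed levels of 293 to 304, 323 to 339 and 349 to 369 CPM. Aif1 and Cx3cr1 stood at 0.47 and 0.14 in injured tissue and did not pass. No gene of that list was at 0, and its part in the Prkcd level was not tested.

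Slc17a6 encodes VGLUT2, the vesicular glutamate transporter of thalamic and other subcortical neurons, and lies at chromosome 7, 51622006 to 51671119. It measured 33.5, 28.0, 28.0 and 28.4 CPM in uninjured, 45.9, 34.3, 38.1 and 36.7 CPM in injured and 44.8, 46.5, 50.6 and 45.1 CPM in treated libraries. The lowest injured library was only just above uninjured replicate 1, and the treated libraries lay above all uninjured ones. The log2 difference from uninjured was 0.39 (SE 0.09) in injured and 0.67 (SE 0.09) in treated tissue. Set against Slc17a7, which encodes VGLUT1, on the TPM scale, Slc17a6 made up 1.79% ± 0.124 of the sum of both in uninjured, 2.25% ± 0.429 in injured and 3.82% ± 0.368 in treated tissue (SD, n = 4). The treated range of 3.38% to 4.27% lay above all other libraries. Slc17a7 itself was lower in treated than in uninjured tissue by 0.45 on the log2 scale, so both parts of that ratio moved.

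Ntng1, Synpo2 and Ramp3 differed from uninjured tissue by smaller steps. Ntng1 encodes netrin G1, a membrane-anchored adhesion protein of thalamocortical axons, and lies at chromosome 3, 109780040 to 110144011. It measured 26.7, 25.9, 24.6 and 25.3 CPM in uninjured, 34.1, 33.1, 31.9 and 31.4 CPM in injured and 31.5, 34.5, 38.0 and 32.8 CPM in treated libraries. All 8 libraries of injured mice lay above the uninjured ones, and the log2 differences were 0.35 (SE 0.07) and 0.42 (SE 0.07). Its intron reads gave -0.04 (SE 0.18) in injured tissue, without the sign of the exon value, and 0.30 (SE 0.18) in treated tissue.

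Synpo2 encodes an actin-binding protein known best from muscle and lies at chromosome 3, 123076519 to 123236149. Its levels were 15.4, 14.9, 13.6 and 14.1 CPM in uninjured, 20.0, 18, 19.4 and 20.2 CPM in injured and 21.4, 20.2, 24.7 and 18 CPM in treated libraries. Both injured groups lay above the uninjured one, and the log2 differences were 0.42 (SE 0.09) and 0.54 (SE 0.09). Muscle transcripts were present in the treated libraries: of 8 skeletal muscle genes 2 were higher in injured and 6 in treated tissue, with summed levels of 46.3 to 55.2, 56.4 to 62.7 and 133 to 168 CPM. Ckm, muscle creatine kinase, was at 0.0498 ± 0.0641 CPM in uninjured, 0.0159 ± 0.0318 in injured and 13.0 ± 1.79 in treated tissue (n = 4), and Acta1 was at 8.94 ± 1.46, 10.6 ± 0.598 and 40.6 ± 7.18 CPM. Of 7 smooth muscle genes, 6 were tested, 0 differed in injured and 1, Des, was higher in treated tissue, with Acta2 and Myh11 at 0.18 and -0.17 there. The muscle genes higher in injured tissue were Atp2a1 (0.96, SE 0.18) and Pygm (0.27, SE 0.07). Pygm averaged 34.4, 41.5 and 36.6 CPM in uninjured, injured and treated tissue. It was the largest part of the skeletal muscle sum in uninjured and injured tissue, so those sums say little about the rarer muscle genes. The part of muscle RNA in the Synpo2 level was not tested.

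Ramp3 encodes a receptor activity-modifying protein that partners the calcitonin receptor-like receptor and lies at chromosome 11, 6658521 to 6677475. It measured 14.3, 16.8, 17.2 and 14.8 CPM in uninjured and 20.4, 24.3, 24.0 and 22.2 CPM in injured libraries, without overlap. The treated libraries held 20.6, 17.0, 17.0 and 24.1 CPM, and replicates 2 and 3 fell within the uninjured range. The log2 difference was 0.53 (SE 0.11) in injured and 0.32 (SE 0.12) in treated tissue, where it did not pass except without treated replicate 3 (0.37). With the trend of GC content and length removed, these became 0.22 (SE 0.07) and 0.00 (SE 0.07). Ramp3 and Gbx2 have the highest GC content of the 10 genes, 55.4% and 59.4%.

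**Figure D2:**
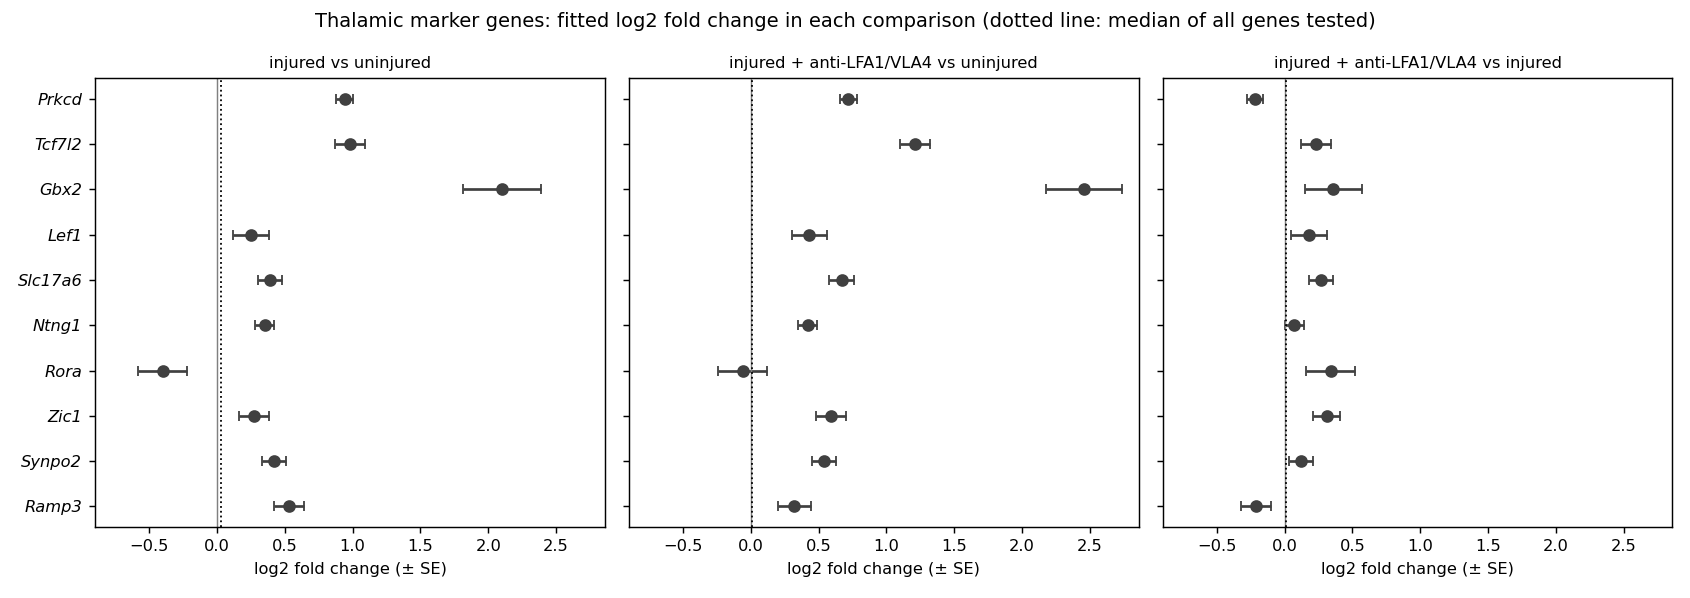
Fitted log2 fold change ± SE (horizontal axis) of the 10 thalamic marker genes (vertical axis) in the 3 comparisons, with the median of all genes tested as a dotted line. Gbx2 reaches 2.10 and 2.46 in the comparisons with uninjured tissue, Rora alone lies below 0 there, and in treated against injured tissue values lie between -0.22 and 0.36.

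On the length-corrected TPM scale Ramp3 and Prkcd had the highest means in every group and Gbx2 the lowest. In uninjured tissue Ramp3 (30.6 ± 2.0 TPM) and Prkcd (24.2 ± 2.29) were highest, followed by Rora, Slc17a6 and Ntng1 (13.8 ± 3.69, 13.6 ± 1.42 and 10 ± 0.57), Zic1 (6.38 ± 0.793), Tcf7l2, Lef1 and Synpo2 (4.36 ± 0.209, 4.13 ± 0.834 and 2.68 ± 0.195) and Gbx2 (0.319 ± 0.105). The range of Rora overlapped those of Slc17a6 and Ntng1, and the range of Tcf7l2 overlapped that of Lef1. Within each uninjured library Rora still stood above Ntng1. The order of Rora and Slc17a6, and of Tcf7l2 and Lef1, changed between uninjured libraries. In injured tissue Prkcd (51.9 ± 4.37) and Ramp3 (49.3 ± 3.84) overlapped at the top, and Gbx2 (1.55 ± 0.359) remained lowest. In treated tissue Prkcd (40.0 ± 1.92) and Ramp3 (38.2 ± 4.74) again overlapped, and Tcf7l2 (10.2 ± 1.51) overlapped Zic1 (9.64 ± 1.17).

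Treated against injured tissue asks whether the antibodies changed these levels after injury. This comparison shares the injured and treated libraries with the comparisons that chose the genes. Its log2 differences follow from those of both comparisons with uninjured tissue, which were known when the genes were chosen. The adjusted p-values and intervals printed for the members here are therefore descriptions too, and no support is drawn from them. Of the 10 genes 1 was higher, Zic1, and 1 was lower, Prkcd, while 10.9% and 10.7% of all genes were called higher and lower, so the members' share was near the background. These were also the only members without overlap, 1 above and 1 below, against 10.6% and 11.4% of all genes. On intron reads 0 of 7 members passed in either direction, while 5.40% of genes were higher and 4.10% lower. Prkcd was 53.6 ± 1.20 CPM in treated and 62.6 ± 2.48 in injured tissue (n = 4), with no overlap. The log2 difference was -0.22 (SE 0.06, 95% interval -0.35 to -0.09, edgeR adjusted p = 0.0204). Without injured replicate 4 the adjusted p of Prkcd in edgeR was 0.0695, and without treated replicate 2 it was 0.0699. On TPM the log2 ratio of its means was -0.38.

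Zic1 was 22.6 ± 1.46 CPM in treated and 18.1 ± 2.47 in injured tissue (n = 4), with no overlap, a log2 difference of 0.31 (SE 0.10, 0.09 to 0.54, edgeR adjusted p = 0.0465). This call was lost in edgeR in 10 of the 12 fits that left out 1 library, with adjusted p-values from 0.0514 to 0.11, and without the count filter (0.0515). On TPM the Zic1 ranges overlapped, 8.86 to 11.4 in treated and 7.27 to 10 in injured tissue. The log2 ratio of its mean TPM was 0.16. Meningeal genes differed between the same libraries. Of 8, 3 were higher in treated than in injured tissue and 0 were lower, beside 10.9% and 10.7% of all genes. Dcn was 1 of the 3, at a log2 difference of 1.23 (SE 0.08), and the largest difference in that list was 2.19.

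The remaining 8 genes did not pass in edgeR. Slc17a6 came closest, at 0.27 (SE 0.09, 0.07 to 0.47, adjusted p = 0.0535), and passed in DESeq2 (adjusted p = 0.0327) and in limma voom (0.0439), but fell to 0.10 (SE 0.06, edgeR adjusted p = 0.288) with the GC and length trend removed. Without uninjured replicate 1 its edgeR adjusted p was 0.0414. Without uninjured replicate 1 and treated replicate 4 together, Slc17a6 (0.29, edgeR adjusted p = 0.0353), Rora (0.43, 0.032) and Ramp3 (-0.32, 0.0275) passed and Zic1 did not (0.32, 0.0525). Rora stood at 0.34 (SE 0.18, -0.04 to 0.73, edgeR adjusted p = 0.188) and Gbx2 at 0.36 (SE 0.21, -0.09 to 0.82, edgeR adjusted p = 0.238). Tcf7l2 stood at 0.23 (SE 0.11, edgeR adjusted p = 0.144) and gave an adjusted p of 0.0311 without injured replicate 1, where Slc17a6 gave 0.00778. Ramp3 stood at -0.21 (SE 0.11, -0.45 to 0.04, edgeR adjusted p = 0.208) and at -0.32 (edgeR adjusted p = 0.0347) without treated replicate 4. Lef1, Synpo2 and Ntng1 stood at 0.18, 0.12 and 0.07 with edgeR adjusted p-values of 0.33, 0.37 and 0.511. For every member the log2 ratio of means was lower on TPM than on CPM here, as for Slc17a6 with 0.12 against 0.27. With this shift Synpo2 and Ntng1 changed sign, to -0.03 and -0.08. A median of 0.21 over the 10 genes stood beside 0.01 over all genes tested.

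Another 18 genes known from thalamic nuclei, a list also written with earlier results of these data known, gave a mixed picture. Adjusted p-values printed for these genes and for the regional lists are therefore descriptions, and no support is drawn from them. In injured against uninjured tissue 8 of the 18 were higher and 2 were lower, with a median log2 difference of 0.31. The shares over all genes were 11.9% higher and 11.0% lower. Shox2, a homeobox factor, rose from 2.26 ± 0.364 to 6.19 ± 0.844 CPM (log2 difference 1.45, SE 0.17, edgeR adjusted p = 0.000337). The calcium-binding protein gene Calb2 rose by 0.83 (SE 0.14, edgeR adjusted p = 0.00291), the synaptic organiser gene Cbln1 by 0.69 (SE 0.12, edgeR adjusted p = 0.00341) and the G protein regulator gene Rgs16 by 0.67 (SE 0.11, edgeR adjusted p = 0.00235).

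The ion channel genes Hcn4 and Cacna1g, which set pacemaker and T-type calcium currents of thalamic neurons, rose by 0.50 (SE 0.14, edgeR adjusted p = 0.0256) and 0.37 (SE 0.08, edgeR adjusted p = 0.0112), and the LIM homeobox gene Lhx2 by 0.25 (SE 0.06, edgeR adjusted p = 0.0129). Foxp2, a forkhead factor of thalamus, striatum and cortical layer 6, fell by 0.59 (SE 0.11, edgeR adjusted p = 0.00487). Pdp1, which encodes a phosphatase of pyruvate dehydrogenase, fell by 0.38 (SE 0.10, edgeR adjusted p = 0.0159). Foxp2 and Pdp1 thus went against the 8 higher genes of the same list.

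Tnnt1, a slow muscle troponin also expressed in thalamus, rose from 5.86 ± 0.901 to 13.0 ± 1.73 CPM in injured tissue (log2 difference 1.14, SE 0.17, edgeR adjusted p = 0.00195). Of 8 skeletal muscle genes 2 were also higher there, Atp2a1 and Pygm, and 6 did not pass. Among those 6, Ckm was at 0.0498 ± 0.0641 CPM in uninjured and 0.0159 ± 0.0318 in injured tissue. In treated tissue Tnnt1 was at 10.5 ± 2.70 CPM, and 6 of the 8 were higher. The part of muscle RNA in the Tnnt1 level was not tested.

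In treated against uninjured tissue 6 of the 18 were higher and 0 lower, with a median of 0.17, beside 6.30% and 3.22% of all genes. Shox2 (log2 difference 1.36, edgeR adjusted p = 0.000206), Tnnt1 (0.84, 0.00951), Calb2 (0.72, 0.00533), Cbln1 (0.63, 0.00475) and Rgs16 (0.40, 0.0319) passed in both comparisons, and the LIM homeobox gene Lhx9 (0.75, 0.0122) passed here. Without uninjured replicate 1 and treated replicate 4 together, 3 of the 18 were called higher.

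Between treated and injured tissue 2 of the 18 were higher and 3 lower, with a median of -0.10. Of all genes 10.9% were called higher and 10.7% lower there, so these counts stood near the background. Foxp2 and Pdp1 were higher by 0.66 (SE 0.11, edgeR adjusted p = 0.00145) and 0.52 (SE 0.10, edgeR adjusted p = 0.00275), back near their uninjured means of 21.6 ± 2.38 and 143 ± 13.0 CPM (treated 22.7 ± 1.17 and 157 ± 12.1). Cacna1g was lower by -0.45 (SE 0.08, edgeR adjusted p = 0.00311), Lhx2 by -0.24 (SE 0.06, edgeR adjusted p = 0.011) and Adarb1, an RNA-editing deaminase, by -0.23 (SE 0.08, edgeR adjusted p = 0.0492). Shox2, Calb2 and Cbln1 stood at -0.09, -0.11 and -0.06 there and did not pass.

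**Figure D3:**
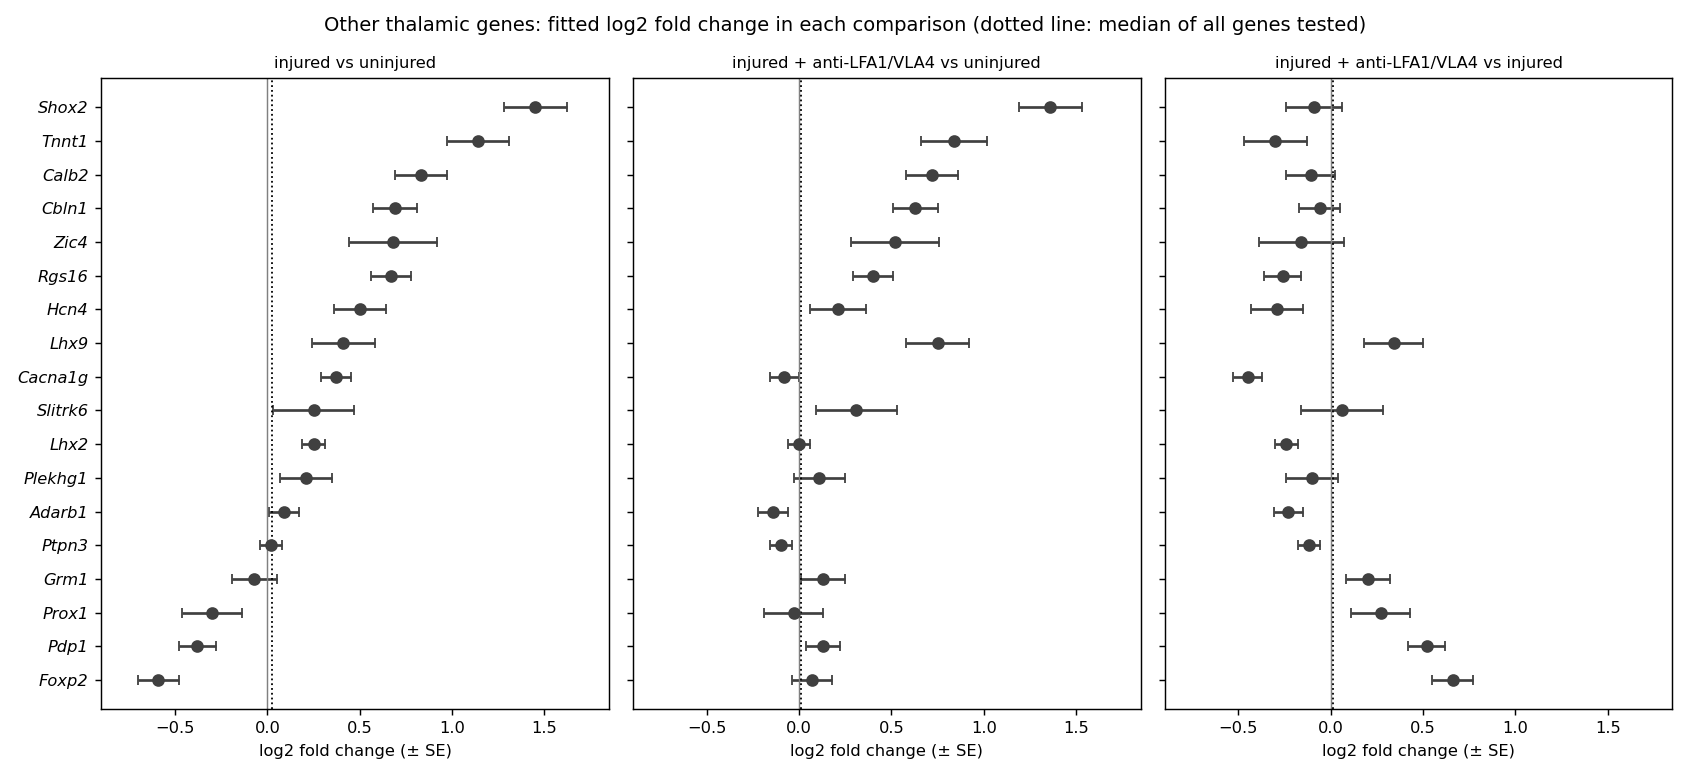
Fitted log2 fold change ± SE (horizontal axis) of 18 other thalamic genes (vertical axis, ordered by injured against uninjured) in the 3 comparisons, with the median of all genes tested as a dotted line. Shox2 lies near 1.4 in both comparisons with uninjured tissue, whereas Foxp2 and Pdp1 lie below 0 in injured tissue and above 0 in treated against injured tissue.

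Genes of neighbouring regions differed between the groups as well, so the cubes differed in more than thalamic genes. For the list counts below, 11.9% of all genes were higher and 11.0% lower in injured against uninjured tissue. These shares were 6.30% and 3.22% in treated against uninjured and 10.9% and 10.7% in treated against injured tissue. The summed level of the 10 thalamic marker genes was 193 to 245 CPM in uninjured, 258 to 292 in injured and 275 to 321 in treated libraries. Rora, Prkcd and Slc17a6 were the largest parts of this sum in every group, with 65.0, 32.7 and 29.5 CPM in uninjured tissue. It therefore says little about the rarer members such as Gbx2. The sum of the 18 other thalamic genes was 648 to 746, 694 to 762 and 660 to 785 CPM, overlapping between all 3 groups. Its largest parts were Adarb1 and Pdp1, so it says little about the rarer genes. Adarb1 averaged 199, 212 and 180 CPM and Pdp1 143, 109 and 157 CPM in uninjured, injured and treated tissue. Of 11 genes of the habenula, which adjoins the thalamus, 5 were higher and 2 lower in injured tissue and 0 higher and 1 lower in treated tissue. Pou4f1, a factor that marks habenular neurons, was 0.116 ± 0.114, 1.13 ± 0.204 and 0.345 ± 0.254 CPM in uninjured, injured and treated tissue. It was higher in injured than in uninjured tissue by 3.19 (SE 0.54, edgeR adjusted p = 0.00325) and lower in treated than in injured tissue by -1.69 (SE 0.44, edgeR adjusted p = 0.0167). Gpr151, a habenular receptor, did likewise with 1.57 (SE 0.21, edgeR adjusted p = 0.000956) and -0.96 (SE 0.20, edgeR adjusted p = 0.00506). The summed habenular level ran from 88.6 to 103 CPM in uninjured, 80.5 to 92.5 in injured and 63.0 to 88.3 in treated libraries. Most of that sum came from Nwd2 and Lrrc55, so it says little about the rarer genes of the list. Nwd2 averaged 40.2, 37.5 and 32.2 CPM and Lrrc55 35.3, 28.9 and 25 CPM in uninjured, injured and treated tissue.

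Of 12 hypothalamic genes 5 were tested, and 3, Avp, Pmch and Hcrt, were higher in treated tissue than in either other group. Hcrt and Pmch, neuropeptide genes of the lateral hypothalamus below the thalamus, were at 0.0504 ± 0.0643 and 0.249 ± 0.145 CPM in uninjured, 0.0765 ± 0.0590 and 0.387 ± 0.149 in injured and 2.97 ± 0.942 and 10.1 ± 2.12 in treated tissue. For Pmch this was a log2 difference of 4.69 (SE 0.27, edgeR adjusted p = 1.5e-07) between treated and injured tissue. Of 11 midbrain genes 6 were tested, 2 were higher in each comparison with uninjured tissue and 0 were lower. These were Tfap2b and Gata3 in injured and Gata3 and Slc6a3 in treated tissue, so only Gata3 was shared. Tfap2b averaged 0.535, 1.75 and 0.978 CPM and Slc6a3 0.3, 0.411 and 3.16 CPM in uninjured, injured and treated tissue. Gata3, a factor of midbrain and hindbrain neurons, was higher by 2.91 (SE 0.57, edgeR adjusted p = 0.00602) in injured and 2.19 (SE 0.64, edgeR adjusted p = 0.049) in treated tissue. Sums of the 11 midbrain genes were 7.19 to 9.13, 12.8 to 14.1 and 13.7 to 15.4 CPM. Of 7 genes of the reticular and prethalamic region, the inhibitory neighbour of the thalamus, 0 differed in injured tissue and 1, Ecel1, was higher in treated tissue, with Dlx1 at -0.10 in injured tissue.

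Regions above and in front of the thalamus went the other way in part. Of 13 striatal genes 6 were lower and 0 higher in injured tissue, none passed in treated against uninjured tissue in edgeR, and 5 were higher in treated than in injured tissue. The dopamine receptor genes Drd1 and Drd2 fell by 0.55 (SE 0.06, edgeR adjusted p = 0.000337) and 0.29 (SE 0.07, edgeR adjusted p = 0.0125) in injured tissue. Striatal sums were 1670 to 1740 CPM in uninjured, 1360 to 1370 in injured and 1480 to 1570 in treated libraries. Of 16 cortical genes 2 were higher and 4 lower in injured and 0 higher and 5 lower in treated tissue. Among these, Slc17a7 was lower in treated than in uninjured tissue (-0.45, SE 0.09, edgeR adjusted p = 0.00869). Of 7 hippocampal genes 2 were higher in injured tissue, with C1ql2 at 0.73 (SE 0.10, edgeR adjusted p = 0.00146) and Fibcd1 short of the threshold at 0.18 (SE 0.06), and 1 was higher and 1 lower in treated tissue. Only 2 of 6 cerebellar genes were tested, neither passed, and Gabra6 had at most 3 reads in all. Of 6 general neuronal genes 1 was higher and 3 were lower in injured tissue, with Snap25 at -0.36 (SE 0.07, edgeR adjusted p = 0.00573), and 1, Rbfox3, was lower in treated tissue. Of 6 astrocyte genes 2 were higher in injured and 1 in treated tissue, with Gfap at 1.10 (SE 0.06) in both and Aqp4 short of the threshold at -0.13 and 0.17. The part of the region sampled in the levels of the thalamic marker genes was not tested, and a difference in the cube's position cannot be told apart from a difference between the groups.

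**Figure D4:**
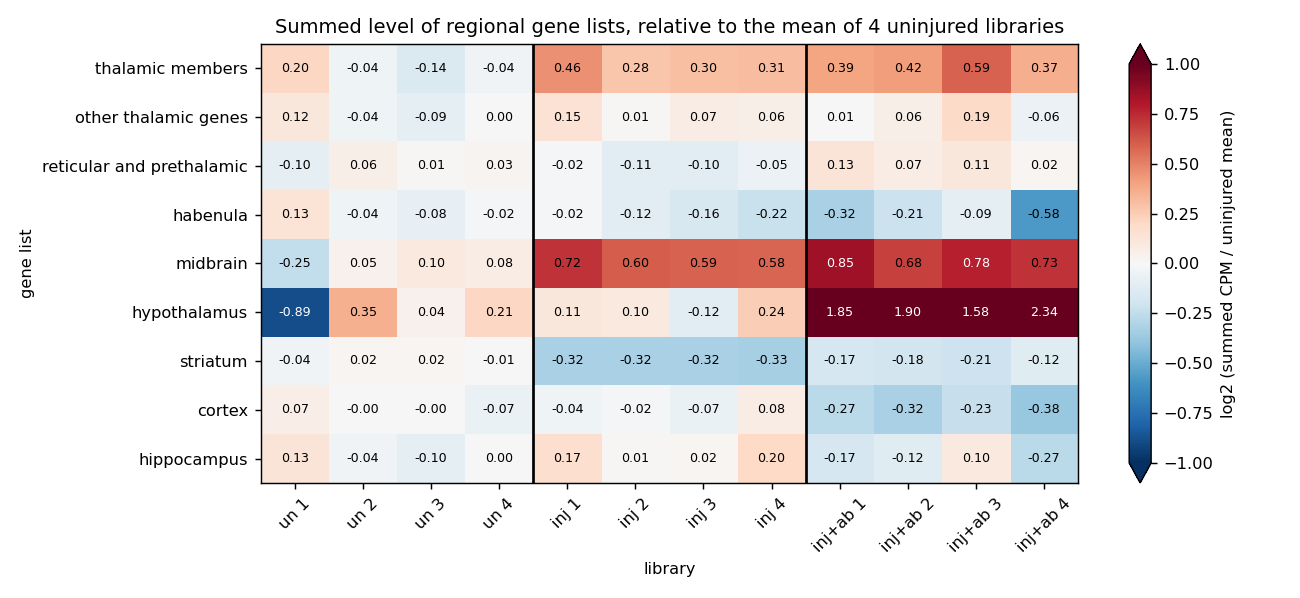
Log2 ratio of the summed CPM of each regional gene list (vertical axis) in each library (horizontal axis) to the mean of the 4 uninjured libraries, by colour and printed value. The 10 thalamic marker genes (thalamic members) and the midbrain list are above 0 in all 8 libraries of injured mice (inj, inj+ab), the other thalamic genes in 7 of these 8, the striatal list is below 0 in all 8, and the hypothalamic list exceeds 1.5 in the 4 treated libraries (inj+ab) only.

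The 10 genes did not vary as one block between mice of the same group. Over the 45 pairs, Pearson r of the deviations from the group means (12 libraries) had a median of 0.22 and ran from -0.84 for Gbx2 with Slc17a6 to 0.89 for Slc17a6 with Rora, and 16 pairs exceeded 0.5. The corresponding Spearman rho of Slc17a6 with Rora was 0.80. Gbx2 and Ramp3, the genes of highest GC content, ran against most of the others, with r of -0.76 and -0.79 to Rora. After the trend of GC content and length was removed within each library, an alternative chosen after seeing the data, the median was 0.07 and 3 pairs exceeded 0.5. These were Prkcd with Lef1 (0.80), Slc17a6 with Rora (0.63) and Tcf7l2 with Ntng1 (0.51). Across all 12 libraries without removal of group means, the median r was 0.76. All these correlations are descriptions over 12 libraries, and the depth and composition of each library enter the values of every gene in it.

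The mean of the 10 genes, each standardised, followed the mean of the 18 other thalamic genes within groups with r = 0.84 (Spearman rho 0.71, 12 libraries), and 0.80 without the 2 libraries farthest from the median. It also followed the cortical list (0.79) and ran against the oligodendrocyte list (-0.83). With the GC and length trend removed these became 0.14, 0.34 and 0.15. Without the 2 farthest libraries the trend-removed values were 0.42, 0.21 and -0.62, so the sign for the oligodendrocyte list rested on those libraries.

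**Figure D5:**
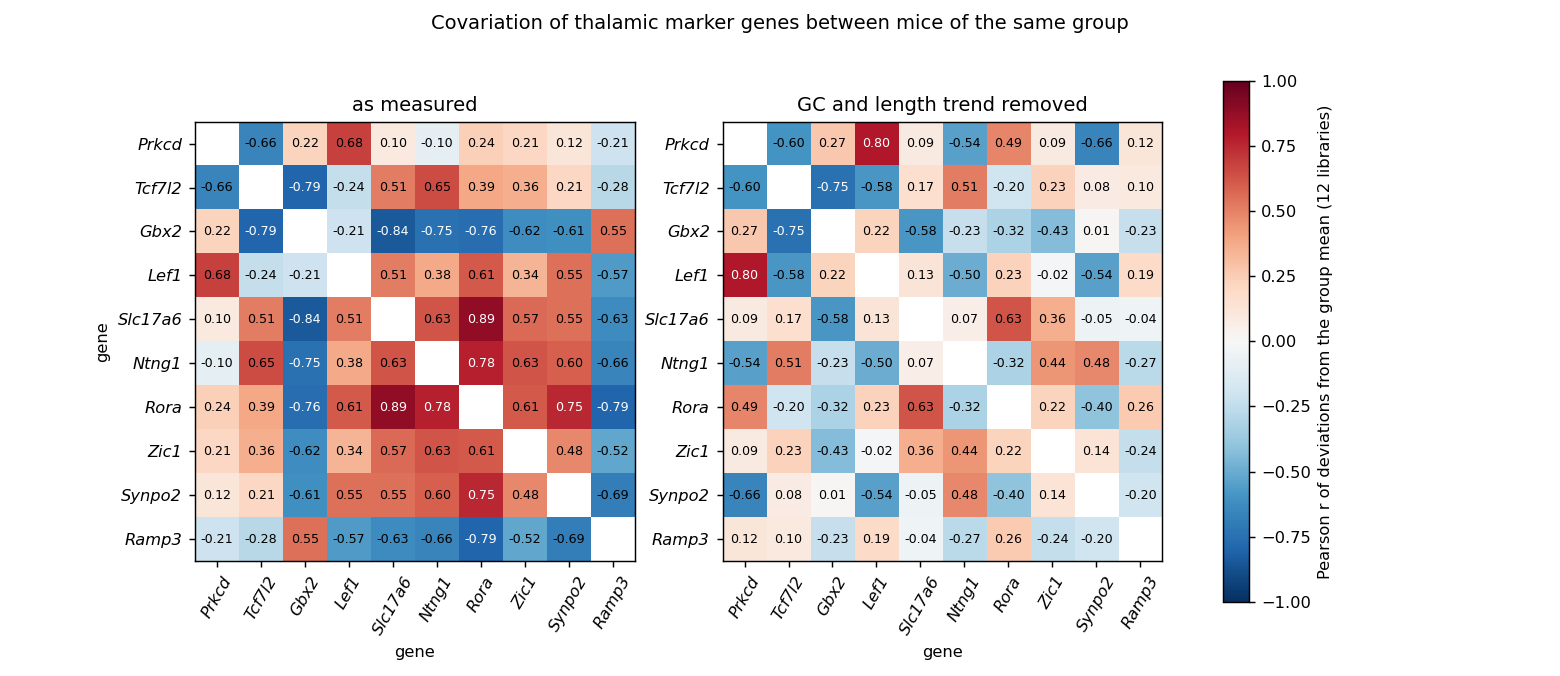
Pearson r of deviations from the group mean (colour and printed value, 12 libraries) for each pair of the 10 thalamic marker genes, named on both axes, as measured (left) and with the GC and length trend of each library removed (right). Gbx2 and Ramp3 run against most others on the left, and 3 pairs exceed 0.5 on the right.

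Among 13444 other genes with a mean of at least 1 CPM, the pattern most like the mean of the 10 genes over all 12 libraries was that of Cd22 (r = 0.958), followed by Syne4 (0.948), Serpina3n (0.947), A2m and Aldh1a2 (both 0.943), Itgax and Gpnmb (both 0.942), C4b (0.941), Hk3 (0.940) and Mmp14 (0.936). All 10 had their lowest mean in uninjured tissue, as Serpina3n with 32.8, 74.0 and 101 CPM in uninjured, injured and treated tissue. Within groups the likest were Dennd5b (0.972), Sp4 (0.969), N4bp2l2 (0.967), Magi1 (0.965), Tnrc6a (0.964), Gabrb1 (0.962), and Tanc2, Zswim5, Pura and Nrxn3 (0.961 each). Neither set held any of the 18 other thalamic genes. The within-group set had a median exon length of 9682.5 bases and a median GC content of 45.4%, against 3521 bases and 49.8% over all genes tested. These r are descriptions over 12 libraries and carry no test.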

How the data were processed

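Bulk RNA libraries of mouse brain were analysed from 12 mice, 4 uninjured, 4 injured and 4 injured with αLFA1/VLA4, grouped by sample title. The labels mark each as a biological replicate from a different mouse. Per the labels' protocols, 500 ng of total RNA entered a stranded total RNA kit. Tools named by the submitters' processing notes are Trimmomatic 0.39, CASAVA 1.8.2 and FastQC 0.11.8, with GRCm38 as build. For the aligner and counter, the name is not given in the sources used here. The authors deposited whole-number counts of exon and intron reads per gene, total and unique, per the file headers. They also deposited TPM per gene, used for levels between genes. Reads of the 10 members were all unique. Each table held 25749 genes, and all their coordinates were those of GENCODE M21.

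Total exon counts were filtered with filterByExpr and scaled with TMM factors, and 14771 genes entered 1 quasi-likelihood model in edgeR 4.0.16 (R 4.3.3) with group as its only term and 9 residual degrees of freedom. Tests were two-sided with Benjamini-Hochberg adjustment over all genes at 0.05. DESeq2 1.42.0, limma 3.58.1 and trends fitted with mgcv 1.9.3 gave alternatives. Promoter windows came from the RefSeq table of GRCm38.p6, in which all 10 members matched by symbol. The scripts were tested on simulated counts.

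The members and all gene lists were chosen with earlier results of these data known. Named genes were the 10 members, every other thalamic gene that passed, the first 2 tested genes of each other list except 3 that are not reported here, 6 further region and cell genes, and the 10 genes of most similar pattern in each of 2 ways. Enpp6, Gpr17, Ecel1, Avp, Des, Atp2a1, Pygm, Nwd2, Lrrc55, Tfap2b and Slc6a3 were named after their values were seen. Replicate numbers were shared between groups, but deviations of same-numbered libraries correlated at -0.53 to 0.43, so no pairing was used. No pair of libraries was a duplicate: the lowest chi-square per degree of freedom within a group was 2.9.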

Additional observations from a re-analysis of the deposited data

Results flagged for a closer look

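Each of the 10 thalamic marker genes was checked in each of the 3 groups for a library far from the other 3, which made 30 checks, and chance gives about 1 in 20. A library stood apart in 3 of them. Gbx2 in injured replicate 1 was at 0.828 CPM, below the 1.36 to 1.39 CPM of the other injured libraries, on 13 reads. Slc17a6 in uninjured replicate 1 was at 33.5 CPM, above the 28.0 to 28.4 CPM of the other uninjured libraries. Zic1 in treated replicate 3 was at 24.7 CPM, above the 21.7 to 22.0 CPM of the other treated libraries. Gbx2 in that library was still above every uninjured library, Slc17a6 in uninjured replicate 1 was still below every injured and treated library, and the other treated libraries were also above every injured library for Zic1.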

How the results depend on the processing

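Against uninjured tissue, 7 to 8 of 10 members were called higher in injured and 7 to 8 in treated tissue under every alternative run on exon reads, the replicate block included; in injured tissue 8 came on library size alone or after removal of the trend of GC and length, and 7 with each library left out. Intron reads, on which 7 members could be tested, gave 1 and 0. The members were chosen with these comparisons known, so the steadiness of these counts is a description and no support. Injured against uninjured tissue had 0 to 1 members lower when 1 library was left out. Between treated and injured tissue, the single member called higher became 0 with library size alone, no count filter, intron reads, removal of the GC and length trend or only the 2 groups compared, and 2 with DESeq2, limma voom, unique reads or both end libraries of the first component left out (an alternative chosen after seeing the data), and ran from 0 to 3 over libraries left out. The single member lower became 0 on intron reads, 2 with the trend removed or both end libraries out, and ran from 0 to 2. The replicate block, which assumes a pairing that the deviations do not show (4 of 24 checks found a library correlating best with its own number), gave 0 members higher, with Zic1 at 0.32 (edgeR adjusted p = 0.0694), and changed no other count by over 1.5 times.

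For the 18 other thalamic genes, intron reads gave 0 higher and 0 lower in injured, 0 higher in treated against uninjured, and 1 higher and 0 lower in treated against injured tissue. The trend removed gave 0 lower in injured tissue, and both end libraries out gave 3 higher in treated against uninjured tissue. Leaving out 1 library gave 1 to 2 lower in injured tissue (1 without uninjured replicate 1) and 1 to 3 lower in treated against injured tissue (1 without injured replicate 4). Signs turned for Ntng1 on intron reads in injured tissue (-0.04), for Tcf7l2 on intron reads in treated against injured tissue (-0.02), and for Rora. Rora gave 0.19 on intron reads and 0.02 with the trend removed in injured tissue. In treated against uninjured tissue it gave 0.81 on intron reads, 0.15 with the trend removed, 0.20 without both end libraries, and -0.20 to 0.13 with 1 library left out. The cause of these changes was not tested. On library size alone the median log2 difference of all genes was 0.11 in injured tissue. Gbx2 rests on 3 to 24 reads per library, which limits its precision.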
